A study of Schizosaccharomyces pombe with 15 samples.

Results

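Wild-type fission yeast (Schizosaccharomyces pombe, strain h-S 972) was compared with and without hydrogen peroxide by CAGE (cap analysis of gene expression), a method that reads short tags from the first bases of capped transcripts and so maps the transcription start site (TSS) of each RNA. The treated group was the 3 cultures that received 0.5 mM H2O2 for 15 min at 30 °C, and the control group was the 3 unstressed cultures in YES, a rich yeast-extract medium, together 6 of the 15 libraries of the series. Another group, wild-type cultures moved to 39 °C for 15 min, was used to set H2O2 beside another short stress. No allele, drug or tag other than the wild-type background is named for any of these groups, and nothing in the labels describes a mock treatment of the YES cultures. One label field gives the medium of both stresses as YES and another as YEL. The labels call the cultures triplicates without saying more, so the p-values measure only spread between cultures. That spread was estimated over all 15 libraries. They also include cultures in EMM, a minimal medium, and cultures starved of nitrogen for 16 h.

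Fission yeast senses peroxide through a pair of linked systems. At low doses the peroxiredoxin Tpx1 passes oxidation on to Pap1, an AP-1-like transcription factor that then stays in the nucleus and switches on antioxidant and efflux genes. At higher doses the stress-activated kinase Sty1 phosphorylates Atf1, which with its partner Pcr1 switches on a wider set of genes shared by many stresses, while growth genes are turned down.

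Library totals over the 5886 genes of the authors' table were 9665353, 11344265 and 18851713 tags in YES libraries 1 to 3 and 14384869, 21760682 and 21426198 after H2O2. Levels below are CPM, tags per 1000000 tags of a library after TMM scaling, and 3 tags corresponded to between 0.139 and 0.346 CPM in these 6 libraries. Across genes, log2 CPM correlated at 0.991 to 0.993 among the YES libraries and at 0.983 to 0.994 among the H2O2 libraries, against 0.961 to 0.969 between the groups, with the lowest value inside the H2O2 group between libraries 1 and 3. A CPM is a share of all capped RNA. A lower value can come from fewer cells of a kind, from less of that RNA per cell or from more of other RNAs. These cannot be told apart in bulk cultures.

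After 15 min of H2O2 the start-site tags of antioxidant, detoxification and efflux genes rose, by up to 116-fold in osr1, while those of 59 of 77 genes for building ribosomes and 12 of 32 for mitosis and septation fell. Most of the called decreases were under 2-fold. edgeR's quasi-likelihood test (adjusted p under 0.05) called 1180 of 5886 genes, or 20% of those tested, with 11.3% higher and 517 genes (8.78%) lower. Rises were larger than falls: the called increases had a median of 1.98-fold with 322 of them at 2-fold or more and 108 at 4-fold or more, whereas the called decreases had a median of 1.76-fold, with 171 and 7 past the same sizes. The 3 H2O2 libraries lay above the 3 YES libraries in 18.5% of all genes and below them in 18.2%, and the groups did not overlap in 654 of the called higher and 510 of the 517 called lower genes. Over all genes the median log2 change was −0.02.

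**Figure D1:**
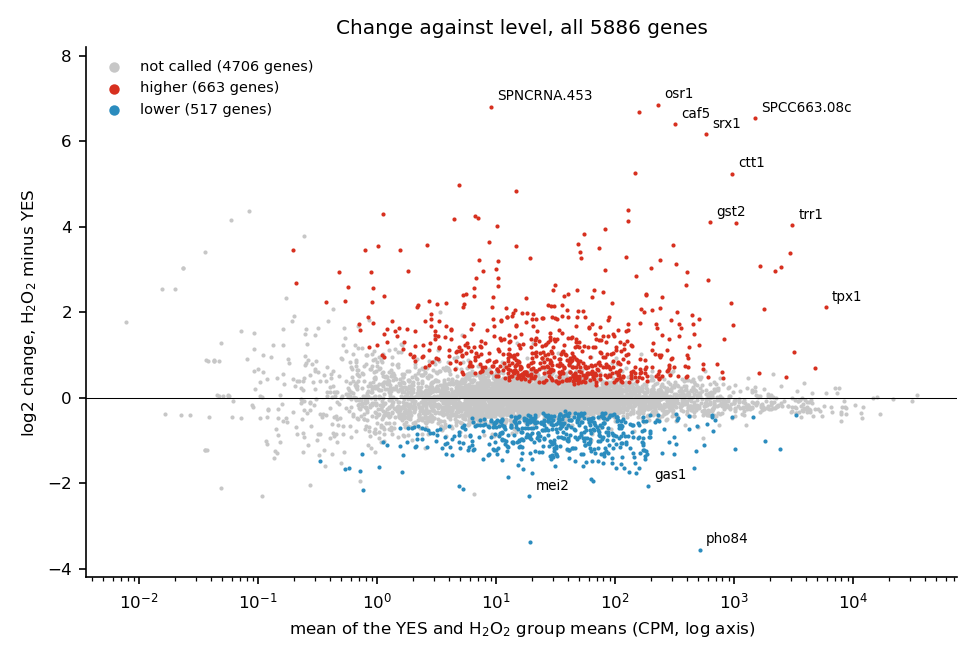
Log2 change after H2O2 (edgeR, y axis) against the mean of the YES and H2O2 group means in CPM (log x axis) for 5886 genes, with the genes called higher in red, the 517 called lower in blue and the rest in grey. The largest increases reach a log2 change of 6.85 (osr1) and the largest decrease is −3.55 (pho84), so the upper arm is the longer.

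The enzymes that remove peroxide rose almost as a whole. Of 14 measured genes for peroxide and superoxide removal, 12 were called higher and 0 lower, with a median log2 change of 1.29. The largest rise was in srx1 (SPBC106.02c), the sulfiredoxin that restores overoxidised peroxiredoxin: 15.7, 14.0 and 17.8 CPM in YES libraries 1 to 3 and 1178, 1016 and 1230.2 CPM after H2O2. The groups were far apart and tight, and the log2 change was 6.17 ± 0.22 (SE; adjusted p = 4.43e-11). Catalase, ctt1 (SPCC757.07c), went from 51.2, 45.9 and 52.8 CPM to 2109.6, 1689 and 1873 CPM, a log2 change of 5.24 ± 0.15 (adjusted p = 4.55e-12). The glutathione S-transferase gene gst2 had 73.7, 63.3 and 69.5 CPM in YES and 1202, 1185 and 1172 CPM after H2O2 with a log2 change of 4.11 ± 0.17 (adjusted p = 2.04e-10).

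The peroxiredoxin gene tpx1 (SPCC576.03c), the main peroxide scavenger and the sensor for Pap1, was already high in YES at 2105, 2052 and 2463 CPM and reached 10304, 8513 and 9832 CPM. All H2O2 libraries lay far above all YES libraries, with a log2 change of 2.11 ± 0.14 (adjusted p = 3.31e-08). Smaller rises were called for the glutathione peroxidase gpx1 (1.44 ± 0.17, adjusted p = 1.62e-05), the mitochondrial superoxide dismutase sod2 (0.61 ± 0.13, adjusted p = 0.00268) and the thioredoxin-related pmp20 (0.66 ± 0.19, adjusted p = 0.0184). For pmp20 the adjusted p reached 0.0799 when H2O2 library 1 was left out, and the call was also lost without YES library 1 or YES library 2. The members that were not called were gst1, at a log2 change of 0.22, and the copper-zinc superoxide dismutase sod1, at −0.14 ± 0.29 (adjusted p = 0.811), whose libraries overlapped (205, 294 and 316 CPM against 323, 266 and 154 CPM).

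Some genes that supply these enzymes with reductant rose. Of 17 genes for thioredoxin, glutathione and NADPH supply, 7 were called higher and 0 lower, with a median log2 change of 0.55. Thioredoxin reductase, trr1 (SPBC3F6.03), which recharges thioredoxin from NADPH, had 406, 347 and 314 CPM in YES and 7153, 6644 and 3675 CPM after H2O2. H2O2 library 3 was the lowest of the treated libraries and still lay far above YES, with a log2 change of 4.03 ± 0.23 (adjusted p = 6.55e-09). The glucose-6-phosphate dehydrogenase gene zwf1, whose enzyme feeds glucose into NADPH production, rose from 729, 726 and 627 CPM to 2632, 2286 and 3797 CPM (log2 change 2.07 ± 0.19, adjusted p = 1.58e-06). The cytosolic thioredoxin trx1 rose by 1.73 ± 0.38 (adjusted p = 0.00380), whereas trx2 was not called: 77.1, 112 and 105 CPM in YES overlapped 70.5, 103 and 181 CPM after H2O2. Both subunits of the enzyme that starts glutathione synthesis were called higher, gcs1 by 0.99 ± 0.13 (adjusted p = 3.74e-05) and gcs2 by 0.74 ± 0.12 (adjusted p = 2.29e-04), as was the glutathione reductase pgr1 (0.67 ± 0.16, adjusted p = 0.00626).

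Part of the genes listed with Pap1 and drug efflux rose, while the gene for Pap1 itself was not called. Tags of pap1 (SPAC1783.07c) were 11.0, 14.5 and 13.7 CPM in YES and 14.6, 14.9 and 11.3 CPM after H2O2, overlapping groups with a log2 change of 0.05 ± 0.16 (adjusted p = 0.883). The response regulator gene prr1, whose product acts with Pap1 at several antioxidant genes, was at 244, 236 and 253 CPM and 256, 245 and 257 CPM (0.05 ± 0.16, adjusted p = 0.891), again with overlap. Of 11 genes in the list of Pap1 and drug efflux genes, which holds both regulators, 6 were called higher and 0 lower. The quinone reductase gene obr1 went from 536, 555 and 496 CPM to 5055, 3603 and 4577 CPM (3.06 ± 0.15, adjusted p = 1.26e-09). The efflux gene bfr1, which protects cells from brefeldin A, went from 20.4, 25.5 and 22.6 CPM to 177, 197 and 292 CPM (3.28 ± 0.18, adjusted p = 4.14e-09). In all of these raised genes the groups stood clear of each other.

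The largest rises of all among protein-coding genes, together with that of srx1, were in osr1, SPCC663.08c and caf5. These genes were put into the same list by name, with earlier results of these data known. Their place in it is therefore not a result. SPCC663.09c, a further member, was not called (log2 change 0.19). The dehydrogenase gene osr1 (SPCC663.06c) had 4.62, 4.45 and 3.06 CPM in YES and 444, 261 and 668 CPM after H2O2, a log2 change of 6.85 ± 0.36 (adjusted p = 2.30e-09). SPCC663.08c, annotated as a short-chain dehydrogenase and a near neighbour of osr1 on chromosome III, had 35.7, 33.4 and 26.96 CPM and 2873, 1837 and 4233 CPM (6.55 ± 0.31, adjusted p = 9.61e-10). The plasma membrane transporter gene caf5 (SPBC609.04) had 7.96, 7.74 and 6.86 CPM and 655, 558 and 682 CPM (6.40 ± 0.15, adjusted p = 2.87e-13). For osr1 and SPCC663.08c the order of the treated libraries was the same, library 3 highest and library 2 lowest, and none came near the YES range.

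**Figure D2:**
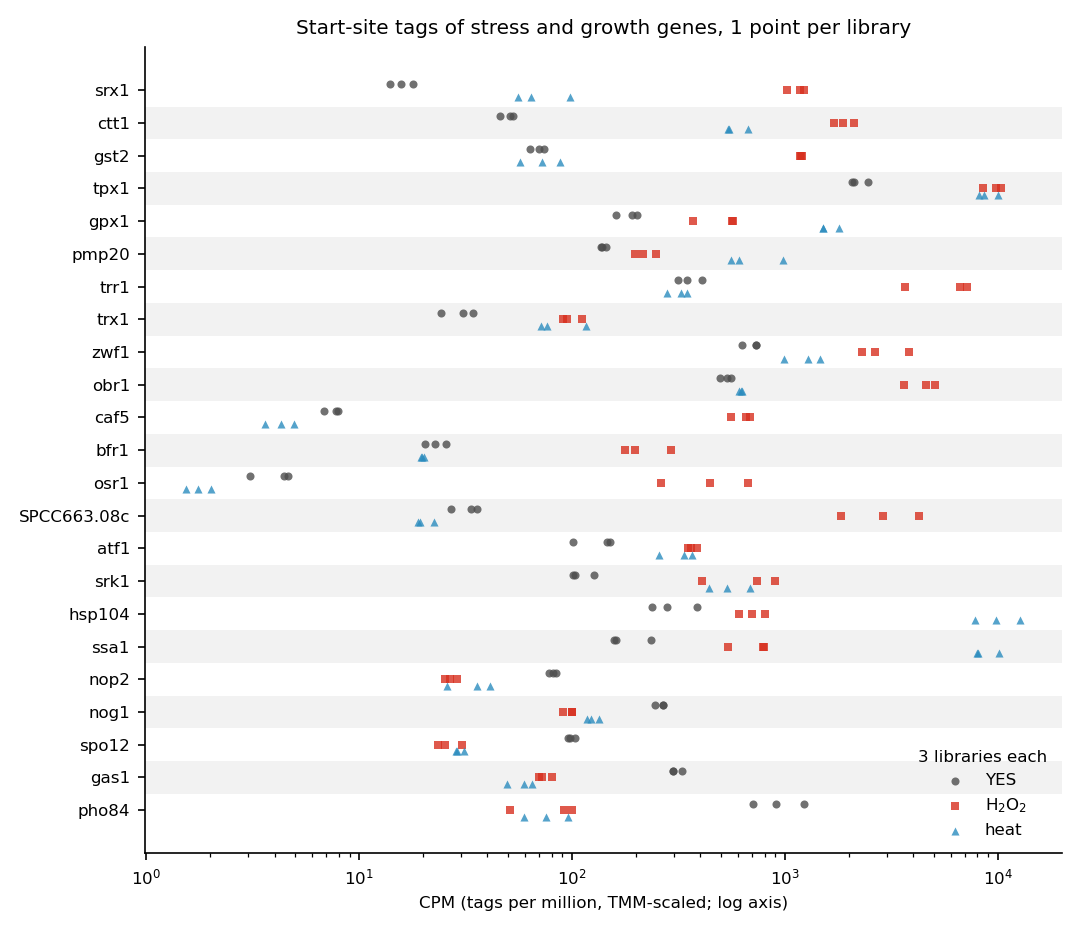
CPM (log x axis) of 23 genes in each of the 3 YES libraries (grey circles), the 3 H2O2 libraries (red squares) and the 3 heat libraries (blue triangles). The H2O2 points of srx1, trr1, caf5, osr1 and SPCC663.08c stand apart from both other groups, those of hsp104 and ssa1 lie between YES and heat, and those of the 5 genes from nop2 to pho84 lie with or near heat, below YES.

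Detoxifying oxidoreductases outside the classical antioxidant set moved with them. Of 23 genes annotated as aldo-keto or other oxidoreductases, 11 were called higher and 1, SPAC24B11.07c, lower (−0.55 ± 0.15, adjusted p = 0.0178), a call lost without H2O2 library 2 or YES library 3 (adjusted p = 0.110 without the latter). The aldo-keto reductase gene SPBC215.11c went from 14.1, 14.0 and 13.6 CPM to 243, 193 and 299 CPM (4.14 ± 0.17, adjusted p = 2.21e-10), and the flavin oxidoreductase gene SPBC23G7.10c from 7.04, 7.12 and 7.69 CPM to 139, 101 and 71.1 CPM (3.82 ± 0.25, adjusted p = 3.31e-08). A second aldo-keto reductase gene, SPAC750.01, was close to silent in YES at 0.577, 1.42 and 0.935 CPM and reached 14.9, 22.2 and 47.9 CPM (4.83 ± 0.42, adjusted p = 7.83e-07). Among transporters, the purine transporter gene SPAC29B12.14c rose from 5.88, 8.37 and 8.16 CPM to 321, 229 and 314 CPM (5.25 ± 0.19, adjusted p = 4.43e-11). Of 58 annotated transporters, 10 were called higher (17.2%) and 7 lower (12.1%), against 11.3% and 8.78% of all genes. The median log2 change of the 58 was −0.04.

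In the Sty1 pathway, rises were called in the transcription factor, in a downstream kinase and in the phosphatases that switch the pathway off. Of 25 pathway genes, 9 were called higher (36%) and 2 lower (8%), against 11.3% and 8.78% of all genes. The share called lower was thus close to that over all genes. The transcription factor gene atf1 rose from 146, 151 and 100.4 CPM to 361, 384 and 348 CPM (1.46 ± 0.24, adjusted p = 3.41e-04), and srk1, which encodes a kinase activated by Sty1, from 103, 100.3 and 127 CPM to 741, 901 and 408 CPM (2.63 ± 0.33, adjusted p = 2.73e-05), with H2O2 library 3 the lowest of its group. The phosphatase genes pyp2 (1.59 ± 0.35, adjusted p = 0.00368) and ptc1 (1.19 ± 0.11, adjusted p = 8.54e-07), whose products dephosphorylate Sty1, were called higher, as was sty1 itself (0.63 ± 0.13, adjusted p = 0.00280). The MAP kinase kinase gene wis1, which acts above Sty1, was called lower, at 99.9, 86.4 and 102 CPM in YES and 62.9, 68.1 and 61.8 CPM after H2O2 (−0.58 ± 0.12, adjusted p = 0.00206). The other member called lower, the kinase gene win1 above Wis1 (−0.66 ± 0.21, adjusted p = 0.0393), lost its call without H2O2 library 1, H2O2 library 3, YES library 1 or YES library 3, where the adjusted p reached 0.215. Atf1's partner pcr1 lay higher in all H2O2 libraries, 45.4, 55.3 and 33.8 CPM against 17.1, 21.4 and 26.4 CPM, but was not called (1.04 ± 0.44, adjusted p = 0.119).

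Genes of the general stress response were raised, less than by heat. Of 25 core stress and carbohydrate genes, 17 were called higher and 0 lower against YES, with a median log2 change of 1.39, the highest of the lists of more than 10 genes. Directly compared, 3 of the 25 were higher after H2O2 than after heat and 14 were lower. The trehalose synthase gene tps1 had 57.1, 56.2 and 46.4 CPM in YES, 143, 158 and 133 CPM after H2O2 and 363, 372 and 373 CPM after heat, and the 3 groups did not overlap. It rose by 1.44 ± 0.14 against YES (adjusted p = 1.83e-06) and stood at −1.36 ± 0.14 against heat (adjusted p = 1.95e-06). The stress gene lsd90 had 14.0, 9.79 and 12.1 CPM, 138, 148 and 116 CPM and 736, 496 and 573 CPM in the same order (3.49 ± 0.22 against YES, adjusted p = 2.02e-08; −2.17 ± 0.20 against heat, adjusted p = 9.02e-07). One call rested on single libraries: hsp9 had 92.3, 64.1 and 85.1 CPM in YES and 500.04, 641 and 103 CPM after H2O2, so that library 3 lay close to YES, and its adjusted p of 0.0261 rose to 0.106 without H2O2 library 2. Its call was also lost without H2O2 library 1 or without any of the YES libraries.

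Most chaperone genes were lower after H2O2 than after heat. Of 30 measured chaperone genes, 6 were called higher than YES (20%, against 11.3% of all genes). Against heat, 20 were called lower after H2O2 and 2 higher, with a median difference of −1.30 log2 units. Over all genes, 15.7% were called lower than after heat and 12% higher. The disaggregase gene hsp104 had 384, 279 and 237 CPM in YES, 701, 609.7 and 808 CPM after H2O2 and 9752, 7794 and 12719 CPM after heat, a log2 change of 1.24 ± 0.23 from YES (adjusted p = 9.18e-04) and a difference of −3.84 ± 0.25 from heat (adjusted p = 1.99e-08). The Hsp70 gene ssa1 had 236, 159.8 and 158, 786, 799 and 542 and 8031, 7974 and 10097 CPM in the same order (1.94 ± 0.22 from YES, adjusted p = 1.18e-05). The chaperone gene hsp90, with 3947, 4746 and 4428 CPM in YES and 5409, 5752 and 3061 CPM after H2O2, was not called (adjusted p = 0.807), and its groups overlapped.

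Over all genes, 706 were called higher after H2O2 than after heat (12% of 5886) and 923 lower (15.7%). That split depends on scaling: with library totals in place of TMM factors it was 1240 higher and 572 lower, and the median difference over all genes moved from 0.00 to 0.20 log2 units. The counts for chaperones, 2 higher and 20 lower, were the same with library totals, and those for core stress genes were 4 and 13. Of the genes raised against YES, 157 were also called higher than heat, 317 were not called different from heat and 189 were lower, in 2 comparisons that share the H2O2 libraries. Among the 12 raised peroxide-removal genes the direction varied: srx1 stood at 3.98 ± 0.20, gst2 at 4.04 ± 0.17 and ctt1 at 1.69 ± 0.13 against heat (adjusted p = 1.33e-09, 2.11e-10 and 1.18e-07), tpx1 was not called (0.10 ± 0.13, adjusted p = 0.636), and gpx1 was lower (−1.67 ± 0.17, adjusted p = 2.54e-06), with 1781, 1506 and 1501 CPM in the heat libraries.

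Promoter sequences gave a second view of this split. The Atf1-Pcr1 core TGACGT and the AP-1-like Pap1 element TTAGTCA were searched on both strands in the 250 bases before each gene's main start site, and the Pap1 palindrome TTACGTAA likewise. The first and the last share the letters ACGT. Among 4881 protein-coding genes, 5.94% held TGACGT, 4.04% TTAGTCA and 0.471% TTACGTAA. Among the 556 called higher than YES, the shares were 18.7%, 7.73% and 2.52%, and among those called lower 3.45%, 3.66% and 0.216%. TGACGT stood in 11 of 123 genes that were also higher than heat (8.94%), in 47 of 267 that were not called different from heat (17.6%) and in 46 of 166 that were lower than heat (27.7%). TTAGTCA ran the other way, with 21 of 123 (17.1%), 19 of 267 (7.12%) and 3 of 166 (1.81%). The palindrome TTACGTAA showed no such run, with 4 of 123 (3.25%), 6 of 267 (2.25%) and 4 of 166 (2.41%). With library totals in place of TMM the same shares were 8.88%, 22.0% and 25.2% for TGACGT and 15.4%, 5.22% and 2.52% for TTAGTCA. These shares carry no test, and a match is a run of letters, not a measured binding site.

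**Figure D3:**
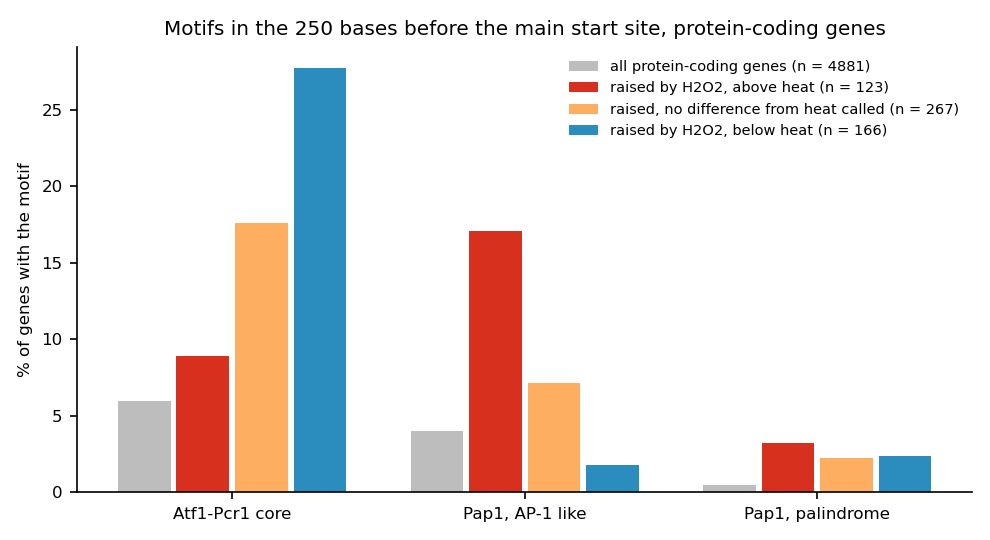
Share of protein-coding genes (y axis, %) with each of 3 promoter motifs in the 250 bases before the main start site, for all genes (grey) and for genes raised by H2O2 that were higher than heat (red), not called different from heat (orange) or lower than heat (blue). The Atf1-Pcr1 core rises from 8.94% to 27.7% from red to blue, while the AP-1-like Pap1 motif falls from 17.1% to 1.81%. The Pap1 palindrome stands at 3.25%, 2.25% and 2.41% in red, orange and blue.

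The promoters of 8 raised genes are shown because they carry these motifs, in capitals, at named distances from the start site; each run ends at the base before the main start site and is written 5′ to 3′ on the strand of the gene. The sequences were read from the RefSeq genome ASM294v3 at the authors' cluster coordinates. The positions are chrIII:58834-58953 for ctt1, chrII:2789588-2789727 for gpx1, chrIII:2296106-2296235 for gst2 and chrI:2094985-2095174 for obr1 on the minus strand, and chrIII:1301807-1301936 for srk1, chrII:1546138-1546217 for atf1, chrII:2120177-2120256 for mag2 and chrII:3166451-3166580 for caf5 on the plus strand. In capitals, ctt1, srk1 and atf1 show TGACGT or its reverse complement ACGTCA, mag2 and gpx1 show TTACGTAA, caf5 and gst2 show TGACTAA, the reverse complement of TTAGTCA, and obr1 shows both Pap1 motifs.
ctt1: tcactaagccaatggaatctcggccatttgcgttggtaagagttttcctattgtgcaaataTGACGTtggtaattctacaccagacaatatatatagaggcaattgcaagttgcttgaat
srk1: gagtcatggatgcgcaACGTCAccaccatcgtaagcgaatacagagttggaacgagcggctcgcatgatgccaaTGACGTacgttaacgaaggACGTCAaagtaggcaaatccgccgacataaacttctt
atf1: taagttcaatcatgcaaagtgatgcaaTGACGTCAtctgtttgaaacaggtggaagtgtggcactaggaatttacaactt
mag2: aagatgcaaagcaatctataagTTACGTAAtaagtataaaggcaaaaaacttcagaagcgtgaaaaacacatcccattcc
gpx1: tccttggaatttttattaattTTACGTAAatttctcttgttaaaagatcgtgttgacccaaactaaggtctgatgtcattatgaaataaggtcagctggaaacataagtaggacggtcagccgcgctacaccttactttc
caf5: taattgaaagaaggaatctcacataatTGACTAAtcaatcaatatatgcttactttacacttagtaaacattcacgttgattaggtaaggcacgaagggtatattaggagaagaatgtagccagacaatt
gst2: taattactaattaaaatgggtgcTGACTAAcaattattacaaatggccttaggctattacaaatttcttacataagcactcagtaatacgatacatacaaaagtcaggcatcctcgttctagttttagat
obr1: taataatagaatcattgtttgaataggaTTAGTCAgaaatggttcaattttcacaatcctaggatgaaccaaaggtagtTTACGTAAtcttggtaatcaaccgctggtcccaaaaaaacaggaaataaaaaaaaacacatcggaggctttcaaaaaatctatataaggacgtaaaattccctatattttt
The TGACGT of ctt1 lies 59 to 54 bases before its start site, and that of atf1 53 to 48 bases before, overlapping a second match on the other strand at 51 to 46 bases. The AP-1-like motifs of caf5, gst2 and obr1 lie farther up, 103 to 97, 107 to 101 and 162 to 156 bases before their start sites. Against heat, caf5, gst2 and obr1 stood at 7.21 ± 0.15, 4.04 ± 0.17 and 2.84 ± 0.15 log2 units, and srk1 and atf1 at 0.31 ± 0.31 and 0.19 ± 0.24, not called different. The shown genes did not all divide by motif: ctt1, with TGACGT, was higher than after heat (1.69 ± 0.13), and gpx1, with the Pap1 palindrome, was lower (−1.67 ± 0.17).

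Part of the genes for self-digestion rose too. Of 31 genes for autophagy and vacuolar proteases, 15 were called higher and 0 lower, with a median log2 change of 0.55, and 10 to 13 were called higher than YES when 1 library was left out. Against heat, 0 of the 31 were called higher and 9 lower, or 2 and 5 with library totals in place of TMM. The protease gene atg4, which processes Atg8, rose from 73.5, 61.9 and 84.8 CPM to 141, 154 and 193 CPM (1.15 ± 0.16, adjusted p = 7.78e-05), and the lipase gene atg15 from 4.50, 5.16 and 4.99 CPM to 9.93, 9.60 and 10.3 CPM (1.02 ± 0.18, adjusted p = 7.76e-04). DNA repair and checkpoint genes as a list were close to the background, with 7 of 53 higher (13.2%) and 3 lower (5.66%). The shares over all genes were 11.3% and 8.78%, and the median of the list was 0.02. The calls of lower genes went to 0 without H2O2 library 2 or YES library 1 and to 1 without H2O2 library 1. Within it, the alkylation-damage glycosylase gene mag2 (SPBC23G7.11) stood out, at 2.19, 1.69 and 2.91 CPM in YES and 17.9, 24.8 and 39.4 CPM after H2O2 (3.56 ± 0.27, adjusted p = 1.61e-07). The excision repair gene rhp14 rose by 1.68 ± 0.16 (adjusted p = 1.53e-06), whereas the base excision genes nth1 (0.21 ± 0.17, adjusted p = 0.440) and apn2 (−0.08 ± 0.14, adjusted p = 0.762) were not called.

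Of the proteasome and ubiquitin genes, 5 of 26 were called higher (19.2%) and 1 lower (3.85%), against 11.3% and 8.78% of all genes. Their median was 0.31, and 3 were called higher without H2O2 library 1 or YES library 2. The ubiquitin gene ubi4 was not called (−0.11 ± 0.23, adjusted p = 0.795). Of 17 glycolysis and fermentation genes 1 was called, eno102, at 50.1, 40.3 and 40.8 CPM in YES and 329, 275 and 464 CPM after H2O2 (3.03 ± 0.21, adjusted p = 4.72e-08), while the abundant glyceraldehyde-3-phosphate dehydrogenase gene tdh1 had 34707, 30633 and 36411 CPM and 41616, 35031 and 30413 CPM, with overlap. Respiratory chain genes gave 0 calls among 28, translation factors 0 among 34 and ergosterol and fatty acid genes 0 among 28 with edgeR, and with DESeq2 the counts were 0, 3 and 1, each lower. At an unadjusted p under 0.05 with edgeR, 0 respiratory, 5 translation factor (all lower) and 3 ergosterol and fatty acid genes (1 higher and 2 lower) passed.

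Of 25 genes of iron, copper and zinc homeostasis, 3 were called higher and 3 lower (12% each way), close to the shares over all genes (11.3% and 8.78%). The higher ones included both ferrichrome synthesis genes: sib1 went from 8.54, 10.3 and 11.1 CPM to 32.4, 38.2 and 63.7 CPM (2.16 ± 0.31, adjusted p = 9.73e-05) and sib2 from 98.8, 94.9 and 114 CPM to 356, 310.5 and 353 CPM (1.72 ± 0.12, adjusted p = 4.72e-08). The lower ones were transport genes, the zinc transporter zrt1 (−1.06 ± 0.16, adjusted p = 1.77e-04), the iron-zinc transporter fet4 (−1.17 ± 0.23, adjusted p = 0.00141) and the iron oxidase fio1 (−0.81 ± 0.19, adjusted p = 0.00557). The ferric reductase frp1 was the remaining one called higher (0.84 ± 0.27, adjusted p = 0.0382), a call lost whichever of the 6 libraries was left out, with an adjusted p of up to 0.141 (without YES library 3).

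**Figure D4:**
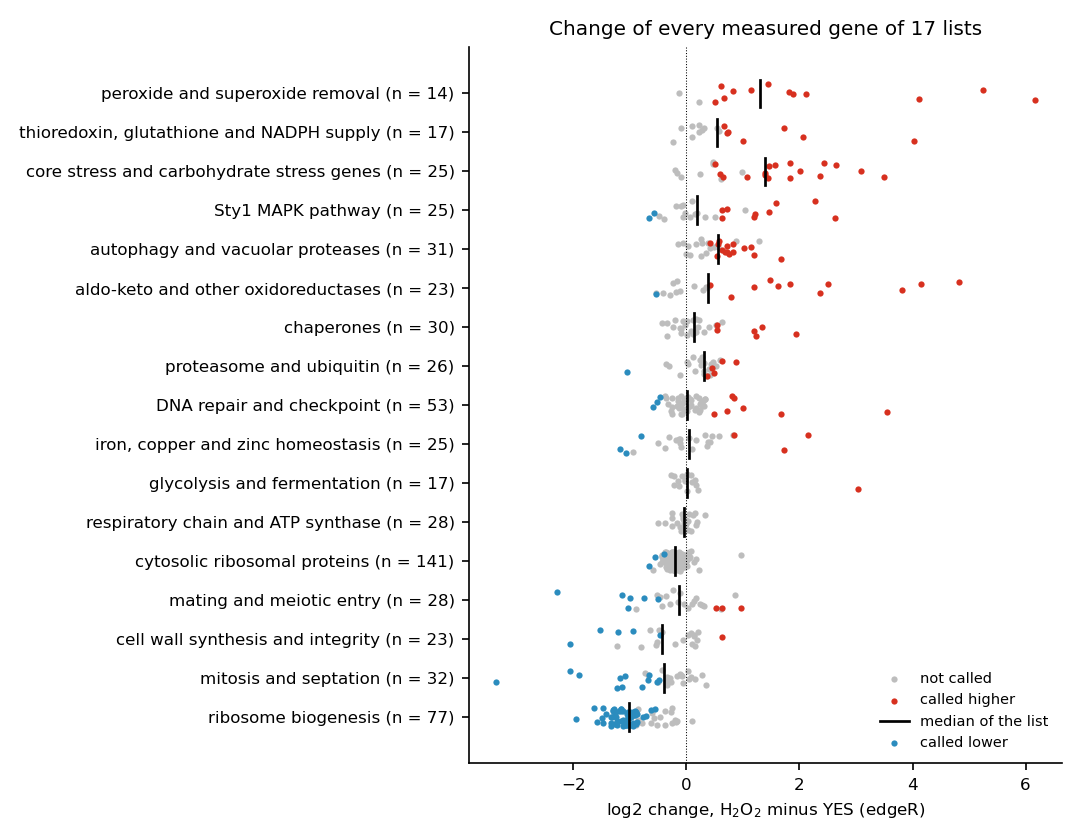
Log2 change after H2O2 (x axis) of every measured gene of 17 lists, with called genes in red (higher) or blue (lower), genes not called in grey and the list's median as a black bar. The peroxide-removal, core stress and autophagy medians lie at 1.29, 1.39 and 0.55, the ribosome biogenesis median at −1.01, and the respiratory and glycolytic genes sit around 0.

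Ribosome biogenesis held more called falls than any other list. Of 77 ribosome biogenesis genes, 59 were called lower and 0 higher, with a median log2 change of −1.01, and in 67 of the 77 all H2O2 libraries lay below all YES libraries. The count was 53 to 59 when 1 library was left out. The rRNA methyltransferase gene nop2 fell from 84.2, 80.8 and 78.1 CPM to 25.3, 26.8 and 28.7 CPM (−1.59 ± 0.16, adjusted p = 3.36e-06). Falls of like size were called for the GTPase gene nog1, at 267, 245 and 266 CPM and 99.9, 90.1 and 100.2 CPM (−1.42 ± 0.11, adjusted p = 2.77e-07), and for imp4, a U3 snoRNP protein gene, at 62.3, 64.1 and 75.3 CPM and 26.9, 21.6 and 23.8 CPM (−1.48 ± 0.14, adjusted p = 1.78e-06). The nucleolin gene gar2 (−1.11 ± 0.14, adjusted p = 2.10e-05) and the largest RNA polymerase I subunit gene nuc1 (−0.77 ± 0.13, adjusted p = 4.67e-04) fell less. The fibrillarin gene fib1 was not called (−0.28 ± 0.16, adjusted p = 0.268), and its groups overlapped. Other core proteins of the snoRNPs that modify rRNA, picked after their values were seen, were not called either: nop56 was at −0.18, nop58 at −0.17, cbf5 at −0.21 and nhp2 at −0.25.

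Among the ribosome's own proteins calls were few. Of 141 cytosolic ribosomal protein genes, 3 were called lower and 0 higher, with a median of −0.20 against −1.01 for the biogenesis genes. All H2O2 libraries lay below all YES libraries in 26 of the 141, close to the 18.2% of all genes. With DESeq2, 10 were called lower, and with edgeR the count was 2 without H2O2 library 1 and 1 without any of the other 5 libraries. In the direct comparison with heat, 7 of the 77 biogenesis genes were higher after H2O2 and 5 lower, with a median difference of −0.06. With library totals these were 10, 1 and 0.12, so the sign of the median depends on the scaling, and most biogenesis genes were not called different between the stresses under either.

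Mitosis, septation and cell separation genes fell without exception among those called, 12 of 32 lower (37.5%) and 0 higher. Over all genes, 8.78% were called lower and 11.3% higher. Tags of spo12, a gene of mitotic exit, went from 97.3, 95.7 and 103 CPM to 30.5, 25.4 and 23.4 CPM (−1.90 ± 0.12, adjusted p = 1.85e-08), and those of cdc15, a scaffold of the contractile ring, from 37.5, 52.7 and 41.2 CPM to 22.1, 17.6 and 18.7 CPM (−1.17 ± 0.18, adjusted p = 1.64e-04). The mitotic kinase gene cdc2 (−0.16) and its cyclin cdc13 (0.02) were not called. The gene eng1, which encodes the glucanase that splits the septum, was called with a smaller change (−0.67 ± 0.18, adjusted p = 0.0155); that call was lost without H2O2 library 3 or YES library 2, and without YES library 3, where the adjusted p was 0.0741.

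Single genes of replication licensing, the cell wall and meiosis fell too. The MCM loader gene cdc18 went from 69.1, 84.6 and 76.6 CPM to 33.6, 31.5 and 42.3 CPM (−1.10 ± 0.16, adjusted p = 1.38e-04). In contrast, res2, a subunit of MBF, the factor that controls G1/S genes, was called higher (0.84 ± 0.15, adjusted p = 9.03e-04). The list of 16 G1/S genes gave 3 calls in each direction (18.8% each), against 11.3% higher and 8.78% lower over all genes. Its lower count was 1 without H2O2 library 1 or 2 or YES library 2 or 3. Of 23 cell wall genes, 5 were called lower (21.7%) and 1 higher (4.35%), the latter 0 without YES library 2. The 1,3-β-glucanosyltransferase gene gas1 fell from 328, 297 and 298 CPM to 80.02, 70.0 and 72.4 CPM (−2.05 ± 0.19, adjusted p = 1.69e-06). The meiosis regulator gene mei2, at 32.0, 30.7 and 32.1 CPM in YES and 7.06, 7.23 and 5.06 CPM after H2O2, fell by 4.91-fold (−2.30 ± 0.27, adjusted p = 1.70e-05). Of the 28 genes of mating and meiotic entry, 6 were called lower (21.4%) and 3 higher (10.7%), against 8.78% and 11.3% of all genes. The lower count was 3 without H2O2 library 3, and the higher count was 1 without H2O2 library 2 or YES library 1.

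The largest fall of any protein-coding gene was in pho84 (SPBC8E4.01c), the phosphate transporter, from 709.6, 905 and 1224 CPM to 100.2, 91.2 and 50.9 CPM (−3.55 ± 0.34, adjusted p = 1.86e-06). The YES libraries spread widely and the highest H2O2 library was still far below the lowest of them. Heat gave 75.4, 95.0 and 59.4 CPM, not called different from H2O2 (0.08 ± 0.31, adjusted p = 0.891). Of 6 phosphate uptake genes, 3 were called lower and 0 higher, and 1 was called lower without H2O2 library 3 or YES library 3. The acid phosphatase gene pho1 was called lower too (−0.90 ± 0.24, adjusted p = 0.0143), but its adjusted p reached 0.112 without YES library 3, and the call was also lost without H2O2 library 3.

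Genes called higher shared features beyond function. Coding sequences with an intron made up 47.4% of all protein-coding genes, 33.5% of those called higher, 13.6% of the 81 called higher by at least 4-fold and 43.3% of those called lower. Main start sites within 100 kb of a chromosome end made up 2.42%, 6.65%, 17.3% and 2.16% of the same groups. Of the raised genes, 35.4% had a raised immediate neighbour, against 19.0% of the lowered genes and 19.2% of those not called. One run of 4 raised neighbours on chromosome III holds xan1, SPCC576.02, tpx1 and bxi1, and a run of 5 on chromosome II, with main start sites from position 59690 to 65551, has eno102 and cmt2 at its ends. These are counts with no test.

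Start sites changed beyond the level of genes. Of 13003 TSS clusters, 2000 were called (15.4%), 1226 higher (9.43%) and 774 lower (5.95%). Clusters at annotated mRNA 5′ ends split evenly, with 9.46% higher and 9.44% lower. Clusters elsewhere were called higher more often than lower: in coding exons 7.88% against 1.71%, and antisense to mRNAs 9.72% against 3.05%. The median YES level in these classes was 1.26 and 0.943 CPM, against 30.5 CPM at mRNA 5′ ends. At so few tags a fall is harder to call than a rise. Over all clusters of these classes the median log2 change was 0.08 and 0.04. The share of all tags at mRNA 5′ ends was 96.9, 96.6 and 96.4% in YES and 96.2, 96.1 and 96.1% after H2O2. The antisense share was 0.166, 0.181 and 0.172% and then 0.210, 0.218 and 0.214%. Both moved without overlap, and the exact permutation test gave p = 0.1 for each (two-sided), the smallest p that 3 against 3 libraries allow.

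At 6 of the 13003 clusters a start site appeared that YES libraries hardly held. These had at most 3 tags in the 3 YES libraries together and at least 5 CPM on average after H2O2. No cluster met the reverse rule, which is the stricter one because the H2O2 group holds more tags than the YES group. The strongest lay on the strand opposite to SPCC663.09c, beside osr1 and SPCC663.08c, with its peak at position 1649591 of chromosome III: 0, 1 and 0 tags in YES and 650, 724 and 1330 after H2O2. Scaled for depth that is a ratio of 1846 (95% exact interval 331 to 72941, counting error only). The sites were picked by these same counts, pooled over libraries. The ratios, bounds and intervals given for them are therefore descriptions, not tests, and make no allowance for the choice. The gene table of the authors counts these tags with trm44. Inside a coding exon of sec72, a site at position 4389250 of chromosome I had 0, 1 and 0 tags in YES and 237, 231 and 811 after H2O2 (ratio 873, interval 156 to 34515). The gene as a whole was not called, at a log2 change of 0.15. Sites at 0 tags in all YES libraries lay antisense to pgt1 (at least 69.0-fold higher), antisense to hrr1 (at least 66.4-fold) and upstream of ppk8 (at least 66.0-fold), taking 3 tags over the YES group as the floor. After heat the 6 sites had between 0.0228 and 0.114 CPM on average.

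Of these 6 windows of 250 bases, 4 held TTAGTCA, against 3.65% of all 13003 clusters and 12.8% of the 382 called higher by at least 4-fold, a look taken after the sites were known. The bases before the sites in sec72 (chrI:4389251-4389370, minus strand) and opposite SPCC663.09c (chrIII:1649501-1649590, plus strand) are shown with TGACTAA, the reverse complement of that motif, in capitals and, in sec72, TTACGTAA as well.
sec72 internal: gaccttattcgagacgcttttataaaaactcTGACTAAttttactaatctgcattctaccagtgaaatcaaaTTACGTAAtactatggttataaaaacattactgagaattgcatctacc
SPCC663.09c antisense: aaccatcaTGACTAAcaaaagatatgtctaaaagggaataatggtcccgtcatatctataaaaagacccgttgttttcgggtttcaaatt
In sec72 the AP-1-like motif lies 89 to 83 bases and the palindrome 48 to 41 bases before the start site, and opposite SPCC663.09c the motif lies 82 to 76 bases before it.

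Raised antisense start sites were also found near raised genes. Among antisense clusters, 12 of the 86 called higher (14.0%) lay within 500 bases of the main start site of a raised protein-coding gene on the opposite strand, against 4.02% of those not called. The corresponding shares were 14.8% and 4.50% for noncoding genes and 18.2% and 3.50% for clusters outside annotated features. In coding exons they were only 0.966% (2 of 207) and 0.210%. Clusters outside annotated features include sites counted in genes, such as a raised site of SPAC29B12.14c, so their share can partly repeat that of raised neighbouring genes. The antisense site by mrs3, for example, rose from 0.338 to 38.2 CPM on average. Another, antisense to cox14 and 417 bases from the start site of ctt1, rose from 0.0807 to 9.91 CPM.

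Single noncoding genes had large rises. Of 921 long noncoding RNA genes, 99 were called higher (10.7%) and 51 lower (5.54%), against 11.4% and 9.51% of protein-coding genes. The lower count was 32 without YES library 3. SPNCRNA.453 has its main start site at position 59250 of chromosome III. That is the site near ctt1 and antisense to cox14 given above, so the rise of that site is part of the gene's rise. The gene's tags also include a site at position 59703, among the sites that YES libraries hardly held. That site had 2, 0 and 0 tags in YES and 101, 116 and 231 after H2O2. SPNCRNA.453 as a whole had 2, 1 and 3 tags in YES and 247, 312 and 459 after H2O2, a depth-scaled ratio of 117 (exact interval 53.8 to 321). After heat it had 0.194, 0.280 and 0.766 CPM. SPCC18B5.02c, annotated as a pseudogene, went from 3.12, 3.38 and 2.81 CPM to 345, 261 and 348 CPM (6.69 ± 0.22, adjusted p = 2.25e-11).

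Choice among a gene's start sites changed in 206 of the 1702 genes tested (12.1%), by edgeR's test of the share of tags per TSS. Usage passed in 41.7% of tested genes that were called higher, 19.2% of those called lower and 6.70% of those not called. Gene levels and site shares come from the same tags, so a strongly rising site can bring about the gene call and the usage call together. A site could also enter the test through its share in any library group, H2O2 included. These percentages therefore cannot tell whether changes in level and in choice are linked. Among the 206 genes, the site that gained share lay downstream in 122 and upstream in 84. The leading site changed in 51, and in 52 the gaining site lay past the annotated start codon. In 79 genes the gain was 20 points or more.

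Among the 8 named switches the one with the most tags was in pep7, a gene for vacuolar protein sorting. Its 5′-end site held 87.8, 92.1 and 92.1% of the gene's tags in YES and 22.3, 28.1 and 17.7% after H2O2, while a site in the coding exon, 210 bases past the start codon, went from 8.54, 6.93 and 5.24% to 77.2, 71.5 and 82.1% (adjusted p of usage = 1.21e-11). In CPM the 5′-end site overlapped between the groups, at 16.4, 16.4 and 21.6 CPM in YES and 16.4, 16.8 and 15.5 CPM after H2O2, and the exon site rose from 1.596, 1.24 and 1.23 CPM to 56.8, 42.6 and 71.7 CPM. Heat left the exon site at 4.66, 9.82 and 7.24% of the tags. In adh8, an alcohol dehydrogenase gene, the site 118 bases before the start codon rose from 19.6, 20.8 and 20.8% to 81.4, 74.9 and 62.3%, and the site that led in YES, 383 bases before it, fell to 6.49, 7.67 and 9.52% (adjusted p of usage = 2.12e-08). The adh8 shift was also seen after heat, where the site 118 bases before the start codon held 60.6, 82.9 and 72.8%.

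Upstream gains were seen in hhy1 and pyp2. In hhy1 the 5′-end site rose from 21.2, 2.78 and 18.9% to 71.6, 68.9 and 79.6%, and the YES libraries had 78.8, 94.4 and 81.1% of the tags at a site inside the coding exon. In pyp2, the phosphatase gene that counters Sty1, the site 799 bases before the start codon went from 17.9, 33.3 and 43.8% to 89.1, 90.2 and 83.7% (adjusted p of usage = 1.41e-06), and in heat it held 91.4, 92.0 and 94.5%. The YES shares of both genes spread widely, and in both, as in adh8, they rest on under 5 CPM per site. Large shifts in tht2, bqt1, SPCC757.02c and SPNCRNA.879 rest on fewer tags still, with under 3 CPM at every site in YES.

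**Figure D5:**
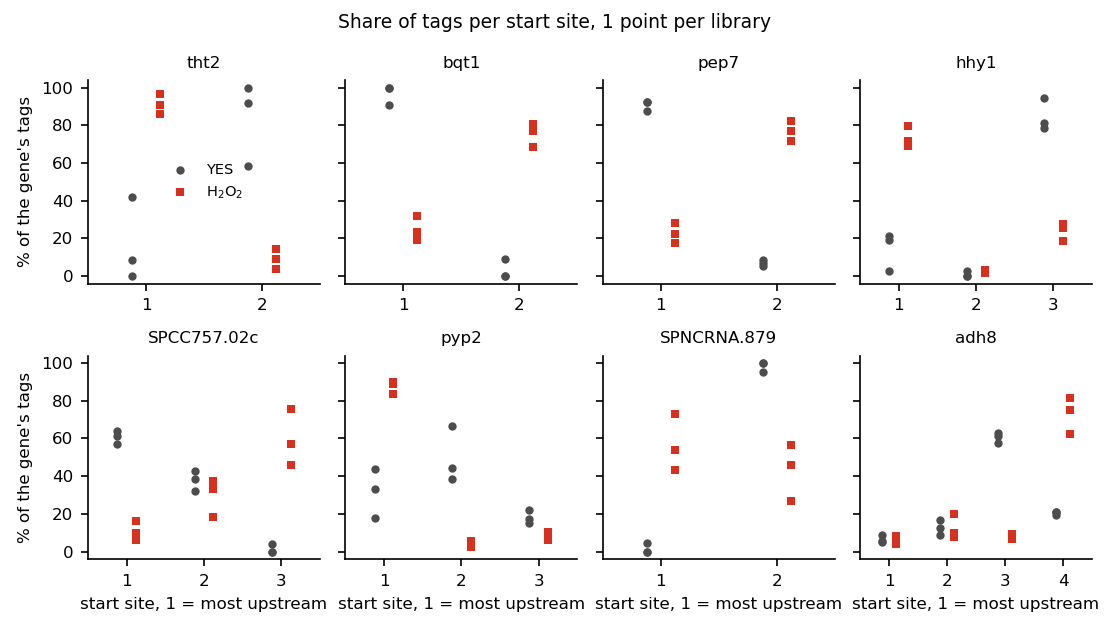
Share of a gene's tags (y axis, %) at each of its start sites, numbered from the most upstream, in the 3 YES libraries (grey circles) and the 3 H2O2 libraries (red squares) for the 8 genes with the largest non-overlapping change in share. In pep7 the second site rises from at most 8.54% to at least 71.5%, and in adh8 the fourth site from at most 20.8% to at least 62.3%.

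Some start sites were called in genes that were not. Among clusters assigned to genes, 383 were called in genes that were not, 241 higher and 142 lower, and 18 were called in the direction opposite to their gene. In ght8, a hexose transporter gene that was not called, the upstream site fell from 18.6, 12.3 and 10.6 CPM to 3.08, 4.02 and 2.56 CPM (log2 change −2.08 ± 0.23, adjusted p = 3.12e-06). In hem12, a heme synthesis gene also not called, a site in an intron rose from 3.99, 4.24 and 4.31 CPM to 12.2, 9.02 and 11.5 CPM (1.38 ± 0.19, adjusted p = 3.23e-05). A coding exon site of med15, a Mediator subunit gene, fell from 23.03, 15.3 and 20.5 CPM to 4.87, 5.10 and 4.44 CPM (−2.03 ± 0.20, adjusted p = 7.39e-07), more than the gene itself, at −0.57.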

How the data were processed

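The authors deposited 2 tables of CAGE tag counts, 1 over 5886 genes and 1 over 13003 TSS clusters, for 15 libraries in 5 groups of 3, of which 6 are compared here. Per the submitters' processing notes, CASAVA 1.6, Bowtie 0.12.7 and build ASM294v2 were used; how tags were clustered and counted is not given in the sources used here. The deposited cluster list gives each cluster's mean CPM over libraries. The authors' normalized log2 tables were not used, and 0 value columns went unmatched to a sample.

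Counts of all 15 libraries entered 1 fit in edgeR 4.0.16 (R 4.3.3): its default low-count filter, TMM factors, robust quasi-likelihood test, Benjamini-Hochberg adjustment over all features, threshold 0.05. CPM and log2 changes were computed here. Start-site usage was tested with edgeR's diffSpliceDGE and Simes' method on sites holding at least 10% of a gene's tags in a library group. Class shares were compared by exact permutation over libraries. Alternatives were DESeq2 1.42.0, other scalings and filters, a minimum change, a replicate block and leaving out each library.

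Genes were named from RefSeq's ASM294v3 annotation: 5830 matched by locus tag, 7 by an older tag and 49 not at all. The deposited coordinates were read in that assembly after a check: a pyrimidine-purine pair, the usual initiator, stood at 85.1% of the 13003 cluster peaks, against 4.71% and 2.84% when shifted by 1 base either way. Motifs were exact matches.

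Named genes are the 12 largest called rises and 12 largest called falls among protein-coding genes without overlap and with at least 5 CPM, 4 and 3 noncoding ones, up to 4 called members of each list per direction with the smallest adjusted p, key members of each list, the 8 largest changes in start-site share, and the 3 largest rises and 2 largest falls of each cluster class. Others are named where a count or feature turns on them, and some genes that the rule names are not reported here. The members and lists were chosen with earlier results of these data known. Intervals and floors (3 counts) cover counting error only; tags are not independent molecules without molecular identifiers.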

Additional observations from a re-analysis of the deposited data

How the results depend on the processing

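Requiring a change larger than 2-fold left 183 genes against YES, 157 higher and 26 lower, with 450 TSS clusters and 309 genes against heat. A minimum of 5 CPM left 1299 clusters called, with fewer tested. A gene-level F test in place of Simes' method called changed start-site usage in 328 genes. DESeq2 called 1302 genes, other scalings and filters 1107 to 1182, and usage counts with other share limits ran from 141 to 254. Leaving out 1 library gave 913 to 1068 genes, 1530 to 1794 clusters, 1203 to 1474 genes against heat and 146 to 178 genes with changed usage. Replicate numbers did not pair the libraries (correlations of same-numbered deviations 0.13, −0.17 and −0.24), and with them as a replicate block the counts were 1102, 1901, 1522 and 214; hsp9 and win1 were then not called. Shares of tags by class, as H2O2 minus YES, moved with a 50-base window for 5′ UTRs (0.0652 points, from 0.114) and, for 3′ UTRs, changed sign without YES library 1 (−0.00282 to 0.00542 points over the libraries left out). Of 75 named and called genes, 0 changed sign, 40 were called in every alternative, 27 were lost only under the minimum change and 8 elsewhere. With fits on the 6 libraries alone pcr1 was called, and win1 was not; library totals also ended the call of win1. Among genes not called, log2 changes around 0 changed sign when 1 library was left out: sod1 ran from −0.37 to 0.11, trx2 from −0.18 to 0.54, pap1 from −0.0538 to 0.17, hsp90 from −0.0466 to 0.35 and tdh1 from −0.0518 to 0.18. The cause of these shifts was not tested. Depth limits statements on sites near 3 tags.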
